A study of Homo sapiens with 6 samples.

Results

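Stem cell associated genes were followed across 6 arrays of the human bladder cancer cell line RT4 and lines derived from it. The 10 genes, KIT, SALL4, SOX2, SOX4, SOX9, POU5F1, NANOG, PROM1, CD24 and BMI1, were taken by their symbol in the table of non-normalized intensities, of 34329 genes in all, and every probe of each was kept, which gave 15 of 47322 probes. KIT, SOX2, POU5F1, NANOG and CD24 had 2 probes each and the other genes had 1. RNA levels were read on Illumina HumanHT-12 version 4 arrays, to compare steps of the blebbishield emergency program with each other and cell lines that differ in their ability to form tumours. The parental cells, RT4P, were measured as untreated live cells, as blebbishields and as transformed spheres. Blebbishields are bodies left by apoptosis that can form spheres again. They were induced with cisplatin at 1 uM and lithium chloride at 20 mM over 24 h, and that sample mixes blebbishields that do and do not form spheres. The spheres had the same treatment followed by 4 h of transformation, after which pure spheres were isolated. No treatment was given to the live cells of the remaining 3 lines. RT4P-BSE2 had been through the blebbishield program 2 times, RT4v6 had been passaged serially in mice 6 times to enrich for cancer stem cells, and PBSHMS is a line from the fusion of an RT4 blebbishield with human PBMC, blood mononuclear cells. All come from 1 cell line, and every group is 1 array. No difference below has a replicate check and none has a p-value.

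The 10 genes belong to several systems. KIT is the receptor tyrosine kinase for stem cell factor, encoded by KITLG, and is best known in blood stem cells, mast cells, melanocytes and germ cells. POU5F1 (OCT4), SOX2 and NANOG are the core transcription factors of pluripotent cells, where OCT4 and SOX2 bind DNA next to each other, and SALL4 is a zinc finger factor of the same network. SOX9 and SOX4 act in epithelial and other progenitor cells, CD24 and PROM1 (CD133) are surface proteins used to sort tumour cells, and BMI1 is a subunit of Polycomb repressive complex 1, which silences the CDKN2A locus.

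Promoter sequence is shown for KIT and SOX4, whose levels moved together over the arrays, and for NANOG, which was detected on none. Each window is from RefSeq, build GRCh38.p14, and runs from 250 bases before to 50 after the annotated start of the gene, 5′ to 3′ on the gene's strand. It is chr4:54657707-54658006 for KIT, chr6:21593501-21593800 for SOX4 and chr12:7789152-7789451 for NANOG, all on the plus strand. Capitals mark matches on either strand to the octamer core ATGCAAA bound by OCT4, the SOX core ACAATG and the GC box GGGCGG.
KIT: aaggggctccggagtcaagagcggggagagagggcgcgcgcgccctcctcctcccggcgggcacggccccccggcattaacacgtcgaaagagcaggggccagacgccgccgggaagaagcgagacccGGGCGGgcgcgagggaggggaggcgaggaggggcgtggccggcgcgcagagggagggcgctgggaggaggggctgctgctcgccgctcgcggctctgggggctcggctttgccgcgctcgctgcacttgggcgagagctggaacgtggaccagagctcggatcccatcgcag
SOX4: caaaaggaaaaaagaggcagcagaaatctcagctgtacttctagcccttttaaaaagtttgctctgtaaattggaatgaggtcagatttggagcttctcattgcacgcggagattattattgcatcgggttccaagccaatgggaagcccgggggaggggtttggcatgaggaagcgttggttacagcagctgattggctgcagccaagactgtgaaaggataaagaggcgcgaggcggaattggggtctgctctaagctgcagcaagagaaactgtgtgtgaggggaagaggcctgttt
NANOG: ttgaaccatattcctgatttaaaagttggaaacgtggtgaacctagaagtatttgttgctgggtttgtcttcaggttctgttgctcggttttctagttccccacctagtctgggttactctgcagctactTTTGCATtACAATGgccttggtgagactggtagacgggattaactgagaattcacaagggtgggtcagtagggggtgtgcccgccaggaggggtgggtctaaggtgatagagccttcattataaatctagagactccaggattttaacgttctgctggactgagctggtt
The NANOG window held the octamer core on the reverse strand at bases 131 to 137 and the SOX core at bases 139 to 144. The KIT window held 1 GC box and neither core, and the SOX4 window held no match to any of the 3 motifs. Over all 35116 windows of the same length, 4.46% held the octamer core, 10.8% the SOX core and 45.0% the GC box. Of the 10 genes, 7 had a window in the table used, and SALL4, SOX9 and POU5F1 were not among them. A match describes letters and not binding.

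A probe counted as detected where the authors' detection p-value was under 0.01, and levels are given as the deposited intensity and as a log2 value after background correction and quantile normalization. Between 14749 and 17593 probes were detected per array, fewest on the blebbishield array, whose mean intensity of 263.2 was below the 349.5 to 389.2 of the other 5. That array's background was 86.7, against 94.4 to 100.7 elsewhere, so equal intensities mean more signal above background there. All 14 luminal urothelial markers were detected on every array, and 6 of 9 basal markers. Of 21 leukocyte markers, 1 to 5 were detected per array. ITGB2 was detected on every array, RT4P included, and was the single one on the PBSHMS array. PTPRC, which defines leukocytes, was detected on no array. A gene entered a comparison if detected on at least 1 of the 2 arrays, by its brightest probe, and is called higher or lower at 2-fold or more. Where only 1 array detected it, the other was raised to its lowest detected value and the difference is a bound. The gauge of spread is the SD between the log2 differences of 2 probes of a gene, 0.22 to 0.40 by comparison and 0.29 to 0.45 for dim genes with a mean log2 value under 7. This probe SD is not replicate error.

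**Figure D1:**
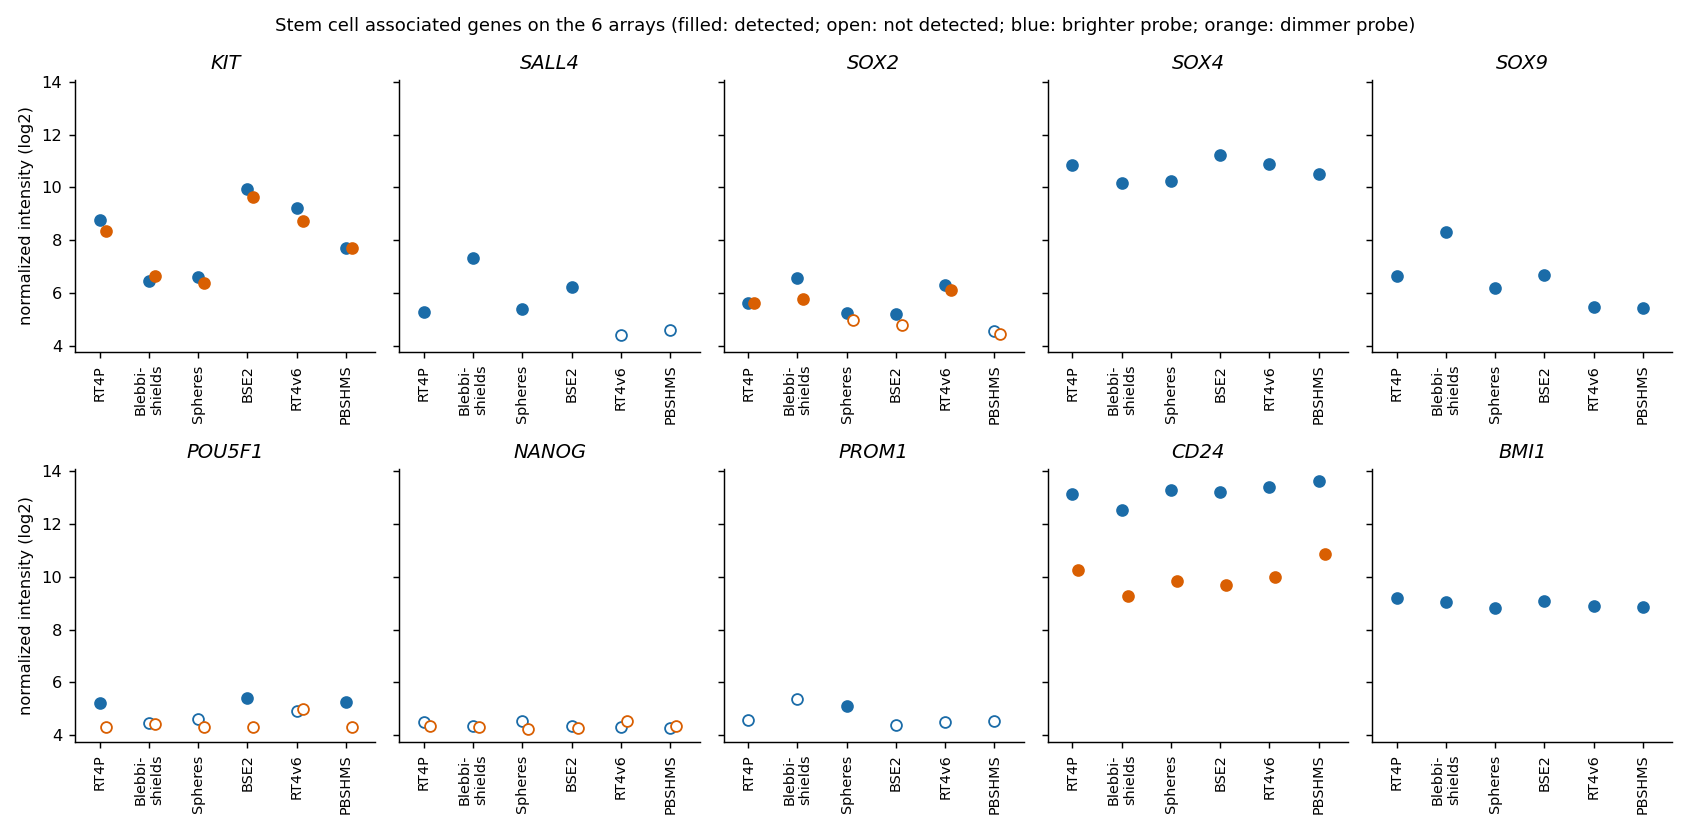
Normalized log2 intensity (vertical axis) of the 10 genes on the 6 arrays (horizontal axis), 1 point per probe and array, with no error bars since each group is 1 array. KIT is lowest on the blebbishield and sphere arrays, SALL4 and SOX9 are highest on the blebbishield array, and all NANOG points are open, not detected.

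KIT, the stem cell factor receptor, was the member with the widest range, and it was detected by both probes on every array. Its brighter probe read 552.9 in RT4P, 128.2 in blebbishields, 198.3 in spheres, 1125.0 in RT4P-BSE2, 728.5 in RT4v6 and 289.3 in PBSHMS. The second probe read 441.3, 135.5, 181.2, 932.9, 538.7 and 287.7 in the same order. Both probes were lowest on the 2 post-apoptotic arrays and highest in RT4P-BSE2, and the 2 post-apoptotic values lay below all 4 live values. After normalization the brighter probe stood at log2 values of 8.75 in RT4P, 6.44 in blebbishields and 6.62 in spheres. KIT was therefore 4.97-fold lower in blebbishields (log2 difference -2.31, and -1.72 by the second probe) and 4.39-fold lower in spheres (-2.14 and -1.98). Spheres and blebbishields differed by 0.18, within the probe SD of 0.34 for that pair, and the second probe put them in the opposite order. In RT4P-BSE2, at a log2 value of 9.95, KIT was 2.30-fold higher than in RT4P (1.20, and 1.28 by the second probe). RT4v6 was 0.47 above RT4P on the log2 scale and under 2-fold, with 0.37 by the second probe. PBSHMS was 2.05-fold lower (-1.04), but its second probe gave -0.66, a 1.58-fold difference. Read from high to low, the brighter probe ran from RT4P-BSE2 to RT4v6, RT4P, PBSHMS, spheres and blebbishields, and each step but the last was beyond the probe SD of its pair. In RNA from whole samples, fewer KIT-positive cells and less KIT RNA per cell cannot be told apart.

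Mast cells express KIT, and of 8 mast cell and basophil markers only the transcription factor gene GATA2 was detected, on every array, while the tryptase gene TPSAB1, CPA3 and MS4A2 were detected on none. The summed normalized intensity of that list ran from 92.3 in spheres and 98.6 in blebbishields to 107.2 in RT4P, 115.8 in RT4P-BSE2, 146.2 in RT4v6 and 170.5 in PBSHMS, a sum of GATA2 and of readings at background. Of 8 haematopoietic progenitor markers, at most 2 were detected per array and none in blebbishields. One of them, LMO2, was 4.26-fold higher than RT4P in spheres and 2.05-fold higher in RT4v6, and with so few measured no share is read. The part of the mast cell or progenitor list in the KIT values was not tested. Some markers of basal urothelium were lower after apoptosis, 3 of 6 measured in blebbishields and 2 of 6 in spheres, with none called in the 3 derived live lines. Over all measured genes, 4.75% were lower in blebbishields and 3.31% in spheres, and 6 markers are too few for a share to be read. PBSHMS, where KIT was also called lower, had a summed basal intensity of 8676, above the 7582 of RT4P. The summed intensity of the list was 3024 in blebbishields and 3203 in spheres against 7582 to 9297 on the 4 live arrays. TP63, the basal master regulator, was 3.23-fold lower in blebbishields and 2.70-fold lower in spheres, and the keratin gene KRT17 was 3.63-fold and 4.13-fold lower. Of the 14 luminal markers, 1 was higher and 1 lower in blebbishields, and in spheres 1 was higher. More were called in the derived live lines, 4 higher and 1 lower in RT4P-BSE2, 3 higher in RT4v6 and 4 higher in PBSHMS. UPK1A was higher in all 3 lines, 2.94-fold, 2.47-fold and 3.17-fold in that order, and UPK2 3.16-fold, 3.33-fold and 3.70-fold. UPK3A was higher in RT4P-BSE2 (2.43-fold) and PBSHMS (2.49-fold), and KRT18 was the gene lower in RT4P-BSE2, 2.10-fold. Over all measured genes, 7.1% were higher in blebbishields and 3.0% in spheres. The shares higher were 1.31% in RT4P-BSE2, where 0.273% were lower, 1.14% in RT4v6 and 1.81% in PBSHMS. The gene higher after apoptosis was KRT20, 8.57-fold in blebbishields and 12.1-fold in spheres. KRT20 was also higher in RT4P-BSE2 (4.72-fold) and RT4v6 (3.49-fold), where KIT was not lower. UPK1B was the luminal gene lower in blebbishields, 2.71-fold, and it was 2.32-fold higher in PBSHMS. The part of the basal or luminal list in the KIT difference was not tested.

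The ligand of KIT had nearly the reverse order. KITLG, detected on all 6 arrays by both probes, had log2 values of 6.00 in RT4P, 8.73 in blebbishields, 7.50 in spheres, 5.81 in RT4P-BSE2, 5.74 in RT4v6 and 7.90 in PBSHMS. Its second probe read 5.64, 8.21, 6.61, 5.10, 5.33 and 7.26. It was 6.65-fold higher than RT4P in blebbishields, 2.84-fold in spheres and 3.74-fold in PBSHMS, the same 3 arrays on which KIT was called lower. In RT4P-BSE2, where KIT was called higher, and in RT4v6, KITLG was under 2-fold from RT4P. Of the 16 genes of the ligand, related receptors and adaptors, 10 were measured in each comparison with RT4P. The only other one called was LYN, a Src family kinase that acts below KIT, which was 4.81-fold lower in blebbishields. LYN had log2 values of 9.49 in RT4P, 7.22 in blebbishields and 8.51 in spheres, and 9.29 to 9.50 in the 3 other live lines. In RT4P-BSE2 and RT4v6 none of the 10 was called.

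**Figure D2:**
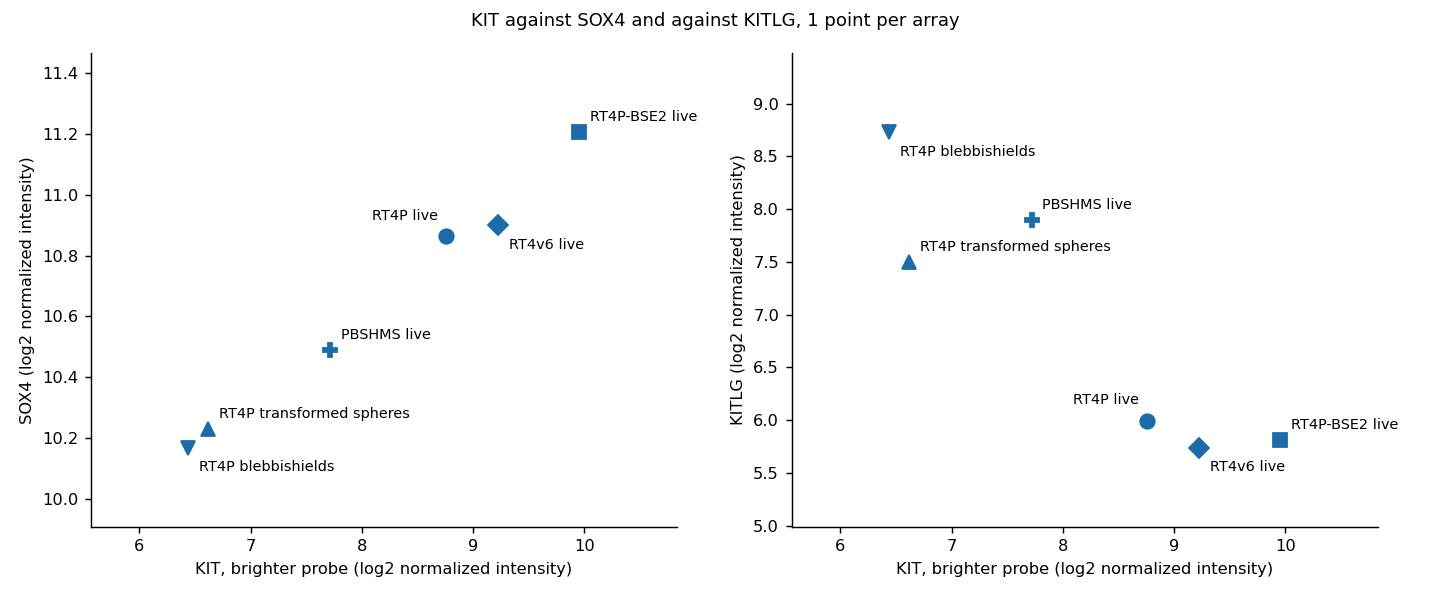
Each point is 1 array, with the log2 normalized intensity of the brighter KIT probe on the horizontal axis and that of SOX4 (left panel) or KITLG (right panel) on the vertical axis, without error bars since each group is 1 array. SOX4 rises from 10.17 to 11.21 in the order of KIT, while KITLG is at 7.50 or more on the 3 arrays with the lowest KIT and at 6.00 or less on the other 3.

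SALL4 and SOX9 had their highest level in blebbishields. SALL4, a zinc finger factor that maintains stem cells of the embryo, read 123.5 in RT4P, 169.2 in blebbishields, 132.0 in spheres and 162.0 in RT4P-BSE2. It was not detected in RT4v6 (95.1) or in PBSHMS (100.2). The log2 values were 5.30, 7.32, 5.39 and 6.23 on the 4 arrays that detected it. Blebbishields were thus 4.05-fold above RT4P (2.02), and spheres, 3.81-fold below blebbishields (-1.93), differed from RT4P by 0.09, within the probe SD of 0.26. RT4P-BSE2 stood 0.93 above RT4P, 1.91-fold and so just under the call. Without between-array normalization blebbishields and RT4P-BSE2 were closer, at 1.26 and 0.97 above RT4P, so the lead of blebbishields depends in size on that step. In RT4v6 the bound was -0.19 and in PBSHMS -0.04, so neither loss is measured at 2-fold against RT4P, where the probe was itself close to the detection limit (detection p-value 0.0039). Its 1 probe has no second probe to set beside it.

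Of the other 3 SALL genes on the array, SALL2 was the single one measured, and it did not follow SALL4. SALL2 had log2 values of 8.13 in RT4P, 5.47 in blebbishields, 5.24 in spheres, 8.46 in RT4P-BSE2, 5.64 in RT4v6 and 7.25 in PBSHMS. It was 6.32-fold lower than RT4P in blebbishields, 7.42-fold lower in spheres and 5.63-fold lower in RT4v6. In blebbishields SALL4 and SALL2 were thus called in opposite directions.

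SOX9, a factor of progenitor cells in many epithelia, was detected on all 6 arrays. Its intensity was 191.3 in RT4P, 266.1 in blebbishields, 169.2 in spheres, 193.3 in RT4P-BSE2, 123.8 in RT4v6 and 121.6 in PBSHMS. The corresponding log2 values were 6.66, 8.32, 6.20, 6.70, 5.46 and 5.44. Blebbishields stood alone at the top, 3.16-fold above RT4P (1.66), and spheres were 4.35-fold below blebbishields (-2.12) and 0.46 below RT4P. RT4P-BSE2 lay within the probe SD of RT4P. RT4v6 was 2.30-fold lower than RT4P (-1.20) and PBSHMS 2.34-fold lower (-1.23), and these 2 lines differed from each other by 0.02. The RT4v6 and PBSHMS calls lie near the threshold and fell under 2-fold when the background was handled differently.

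SOX2, the partner of OCT4, was dim on every array. The brighter probe read 134.0 in RT4P, 132.6 in blebbishields, 127.6 in spheres, 119.4 in RT4P-BSE2 and 161.5 in RT4v6, and it was not detected in PBSHMS (99.3). The second probe read 133.8 in RT4P, 110.0 in blebbishields and 151.8 in RT4v6 and was not detected on the other 3 arrays. On the log2 scale the brighter probe stood at 5.61, 6.57, 5.26, 5.19 and 6.29 on the 5 arrays that detected it. Deposited intensities of RT4P and blebbishields were thus alike, and the difference of 0.96 between them, under 2-fold, arose with background correction and normalization; the second probe gave 0.17. Spheres were 2.48-fold below blebbishields (-1.31), a call that held under 5 of 9 settings and fell to -0.53 without between-array normalization. The second probe differed by -0.78 there, with spheres not detecting it. RT4v6 was 0.68 above RT4P (0.50 by the second probe), beyond the probe SD of 0.25 and under 2-fold. In PBSHMS the difference from RT4P was a bound of -0.36. PBSHMS is the only array on which neither SOX2 probe was detected.

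SOX4, a factor that promotes progenitor growth and is often raised in carcinomas, was detected on every array and was never called. Its intensity was 2151 in RT4P, 792.3 in blebbishields, 1474 in spheres, 2554 in RT4P-BSE2, 2084 in RT4v6 and 1518 in PBSHMS. After normalization the log2 values were 10.86, 10.17, 10.23, 11.21, 10.90 and 10.49. The 2 post-apoptotic arrays were lowest, by 0.70 for blebbishields and 0.63 for spheres against RT4P, each beyond the probe SD of 0.40 and 0.26. Of 17 further SOX genes, 3 were measured in each comparison. In spheres SOX13 was 2.06-fold lower and SOX21 2.02-fold higher than in RT4P, and in the other comparisons with RT4P none of the 3 was called.

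The remaining core pluripotency factors were at or below the detection limit. POU5F1, which encodes OCT4, was detected by 1 of its 2 probes, at 121.6 in RT4P, 126.0 in RT4P-BSE2 and 117.0 in PBSHMS. The same probe read 87.8 in blebbishields, 108.6 in spheres and 109.3 in RT4v6, which did not pass. Log2 values on the 3 detecting arrays were 5.23, 5.41 and 5.27, within 0.17 of each other. The second POU5F1 probe was detected on none of the 6 arrays. Neither NANOG probe was detected, with 81.6 to 105.8 over all 12 readings. Both genes have near-identical pseudogenes, and which transcripts the probes bind was not checked here. At these levels a difference between arrays could not be measured.

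KLF4, a factor that with OCT4 and SOX2 can reprogram cells to pluripotency, was measured on every array, unlike NANOG. It stood at log2 values of 5.89 in RT4P, 7.90 in blebbishields, 8.94 in spheres, 7.39 in RT4P-BSE2, 6.49 in RT4v6 and 7.01 in PBSHMS, lowest in RT4P. Of 31 further pluripotency factors and partners, 8 were measured in each comparison. KLF4 was the only one called in blebbishields, spheres and PBSHMS against RT4P. In RT4P-BSE2 KLF4 was 2.82-fold higher and TFCP2L1, a factor of naive pluripotent cells, 2.10-fold higher, and in RT4v6 TFCP2L1 alone was called, 2.02-fold higher. From blebbishields to spheres KLF4 was 2.07-fold higher and TBX3 2.14-fold higher. None of the 8 was called lower in any of the 6 comparisons. Over all measured genes, 0.273% to 6.01% were lower and 1.14% to 7.1% higher by comparison. With 8 genes no share is read from these counts, and few or no lower calls are what such shares would give.

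The surface markers PROM1 and CD24 differed in how they could be read. PROM1, a pentaspan membrane glycoprotein, passed detection in spheres alone, at 122.2 with a detection p-value of 0.0039. It read 104.2 in RT4P, 103.0 in blebbishields, 95.9 in RT4P-BSE2, 97.1 in RT4v6 and 98.7 in PBSHMS. In blebbishields its detection p-value was 0.01688, and its normalized log2 value there, 5.37, was above the 5.10 in spheres, so no order of the 2 can be read. The bound against RT4P in spheres was under 2-fold.

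CD24, a small glycosylphosphatidylinositol-anchored sialoglycoprotein of epithelial and tumour cells, was detected by both probes on every array. Its brighter probe read 10524 in RT4P, 4217 in blebbishields, 10872 in spheres, 10178 in RT4P-BSE2, 10367 in RT4v6 and 12701 in PBSHMS. The log2 values were 13.14, 12.52, 13.30, 13.20, 13.39 and 13.60, and those of the second probe 10.25, 9.28, 9.84, 9.69, 10.00 and 10.85. Blebbishields were lowest and PBSHMS highest by both probes. The differences from RT4P were -0.62 in blebbishields (-0.97 by the second probe) and 0.46 in PBSHMS (0.60), both under 2-fold and beyond the probe SDs of 0.40 and 0.24. For spheres the probes disagreed in sign, with 0.16 and -0.41, as they did for RT4P-BSE2 (0.06 and -0.56) and RT4v6 (0.25 and -0.25). CD24 has processed copies elsewhere in the genome, and which of them the probes bind was not checked.

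Among 28 other surface and enzyme markers of stem cells, 16 to 18 were measured in each comparison with RT4P. In blebbishields 2 were higher and 3 lower, in spheres 3 higher and 1 lower, in RT4v6 1 higher and 2 lower, in PBSHMS 2 higher and 1 lower, and in RT4P-BSE2 none was called. Over all measured genes the shares higher and lower were 7.1% and 4.75% in blebbishields, 3.0% and 3.31% in spheres, 1.14% and 2.41% in RT4v6 and 1.81% and 2.03% in PBSHMS. The retinaldehyde dehydrogenase ALDH1A1 was detected in blebbishields and spheres alone, at least 10.5-fold and at least 31.2-fold above RT4P. Its relative ALDH1A3 was 10.3-fold higher in spheres, 2.69-fold higher in PBSHMS and 8.69-fold lower in RT4v6. NT5E (CD73), a cell surface enzyme that makes adenosine, was at least 6.96-fold lower in blebbishields and 8.55-fold lower in spheres, and 2.33-fold lower in PBSHMS. CD44, the hyaluronan receptor, was 2.19-fold lower in blebbishields than in RT4P, and it was 3.23-fold higher in spheres than in blebbishields, with spheres under 2-fold from RT4P. In RT4v6 the adhesion molecule ALCAM was 3.71-fold lower than in RT4P, while PROM2, the close relative of PROM1, was 2.12-fold higher. PROM2 was detected on all 6 arrays, at log2 values from 10.12 in spheres to 11.28 in RT4v6.

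BMI1 had the narrowest range of the 5 members detected on all 6 arrays. It read 721.5 in RT4P, 395.2 in blebbishields, 615.1 in spheres, 658.0 in RT4P-BSE2, 590.4 in RT4v6 and 541.4 in PBSHMS. Normalized log2 values were 9.19, 9.06, 8.83, 9.09, 8.89 and 8.85, all within 0.36 of each other, and no comparison reached 2-fold. Without between-array normalization BMI1 differed by -0.98 in blebbishields against RT4P and by 0.71 in spheres against blebbishields. The medians of all genes were then -0.70 and 0.76, so the narrow range of BMI1 depends on that step. COMMD3, the neighbour of BMI1 that is also read through into it, was 2.27-fold lower in blebbishields, where BMI1 differed by -0.14. Of 27 other Polycomb and CDKN2 genes, 20 to 22 were measured. In blebbishields PHC2, a Polycomb complex 1 subunit that lets these complexes cluster, was 2.04-fold lower. CDKN2C, an inhibitor of CDK4 and CDK6, was at least 3.12-fold lower in blebbishields, at least 4.30-fold lower in spheres and at least 3.98-fold lower in RT4v6. In RT4P-BSE2 and PBSHMS no gene of this list was called.

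Counted together, the members were called in every comparison, in small numbers. In blebbishields against RT4P 2 of 8 measured members were higher and 1 was lower, where 7.1% of 13745 measured genes were higher and 4.75% lower. Spheres against RT4P had 1 of 9 lower, KIT, and none higher, where 3.31% of 14569 genes were lower and 3.0% higher. From blebbishields to spheres 3 of 8 were lower, SALL4, SOX2 and SOX9, and none higher, against 6.01% lower and 3.03% higher of 14199 genes. RT4P-BSE2 had 1 of 8 higher, KIT, and none lower, against 1.31% higher and 0.273% lower of 14290 genes. RT4v6 had 1 of 8 lower, SOX9, and none higher, against 2.41% lower and 1.14% higher of 14079 genes. PBSHMS had 2 of 8 lower, KIT and SOX9, and none higher, against 2.03% lower and 1.81% higher of 13676 genes. Median log2 differences of the measured members were -0.07, -0.35, -0.11, 0.12, -0.04 and -0.35 in that order, beside medians of all genes between -0.01 and 0.02. The members that passed the detection filter are too few for a share to be read, and 5 of the 6 comparisons use the same RT4P array. KIT was called in 4 comparisons and SOX9 in 4, SALL4 in 2 and SOX2 in 1, and the other 6 members in none.

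**Figure D3:**
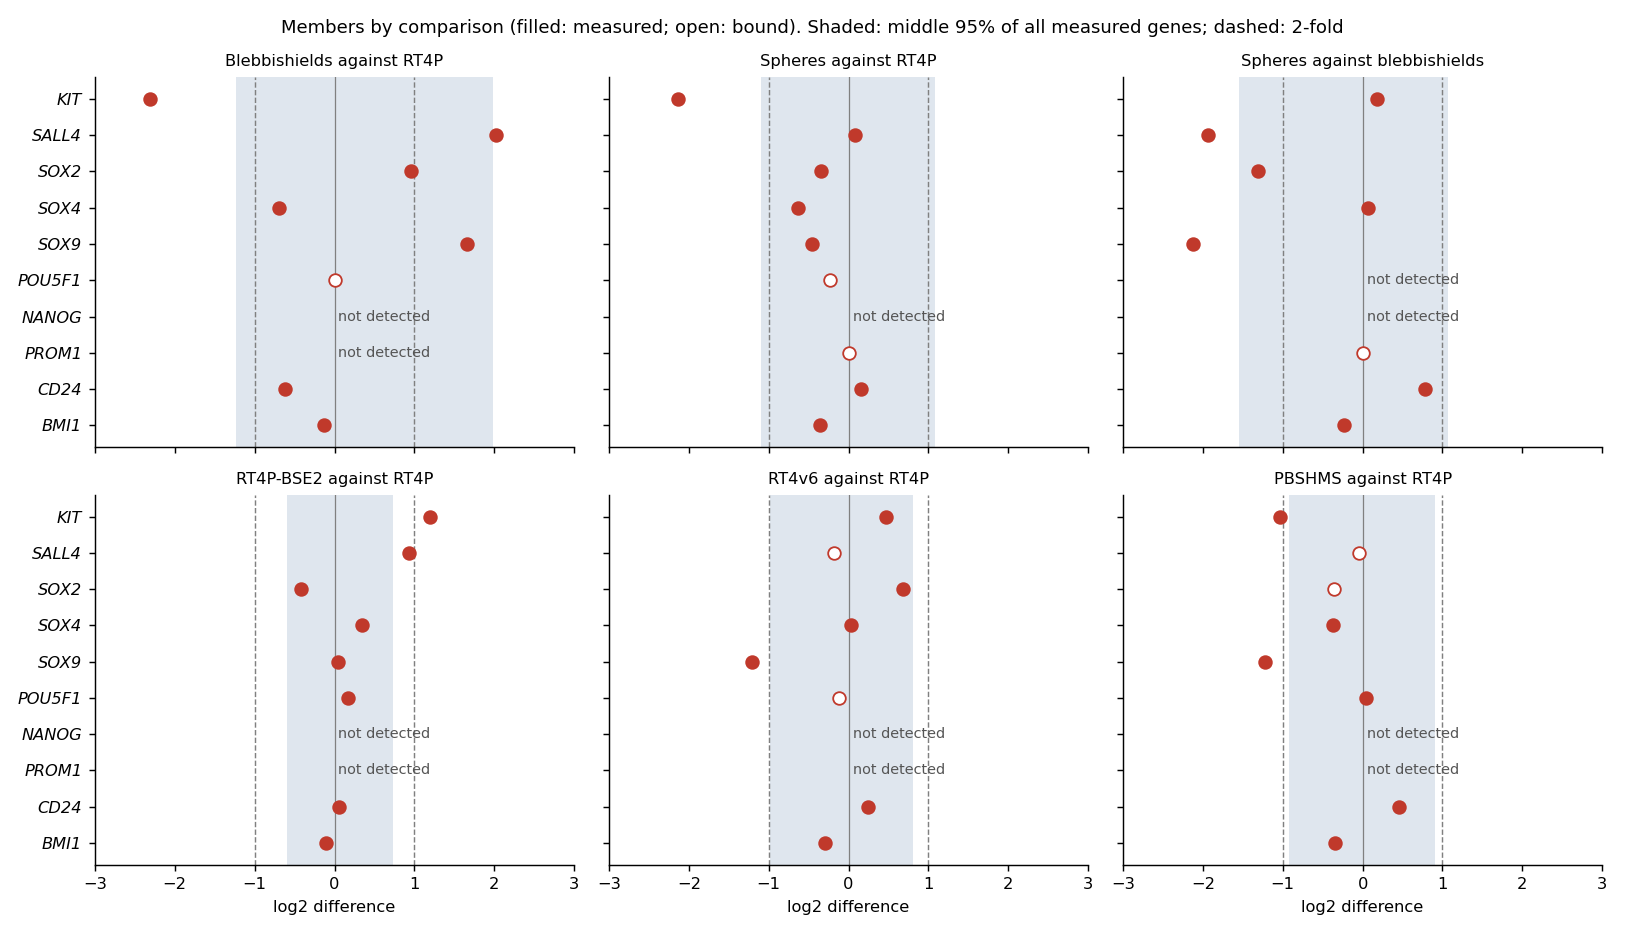
Log2 difference (horizontal axis) of each member (vertical axis) in the 6 comparisons, filled for a measured difference and open for a bound, with the middle 95% of all measured genes shaded and 2-fold dashed; there are no error bars since each group is 1 array. KIT lies outside the shaded range in every comparison with RT4P except RT4v6, at -2.31 in blebbishields, -2.14 in spheres, 1.20 in RT4P-BSE2 and -1.04 in PBSHMS.

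Between the 2 post-apoptotic and the 4 live arrays, KIT, SOX4 and POU5F1 did not overlap and were lower after apoptosis, and PROM1 did not overlap and was higher. Over all 16285 genes detected on at least 1 array, 15.1% lay wholly below and 14.5% wholly above. With 9 members no share is read from these counts, and POU5F1 and PROM1 entered only through the arrays on which they were detected, so their order rests on readings that did not pass.

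Patterns over the 6 arrays were compared by Pearson's r of log2 values among 4198 genes with a span of at least 1, and an r this high over 6 arrays is a description. For KIT the nearest gene was SOX4, another member (r = 0.995, n = 6 arrays), followed by the ATP-gated channel gene P2RX6 (0.993) and RERE (0.985). SOX4 in turn was nearest to KIT, then to IFI35 and PIK3IP1. KIT spanned 3.51 on the log2 scale and SOX4 1.04. Leaving out each array in turn gave an r of 0.993 to 0.998, and 0.974 to 0.991 for the second KIT probe. Without between-array normalization r was 0.950 and 0.926 for the 2 probes. The arrays share cell line, array type and, for post-apoptotic samples, drug treatment. SALL4 was nearest to TMEM143 (0.983), SOX2 to the Y RNA gene RNY4 (0.989), SOX9 to MINDY2 (0.989) and CD24 to POFUT4 (0.989). Among the members SALL4 and SOX9 had an r of 0.96, and SOX9 and the brighter probe of CD24 one of -0.97. SALL4 was not detected in RT4v6 or PBSHMS. Blebbishields were the highest array for SALL4 and SOX9 and the lowest for CD24. For these pairs no array was left out in turn and the second CD24 probe was not compared.

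Processing moved the size of these differences more than their direction. The 11 called values had 93 values under other settings, all in the main direction. Of these, 28 equalled the main value, since a looser detection filter leaves genes detected on both arrays as they are and a mean over probes leaves genes with 1 probe, and 48 of the other 65 were at least 2-fold. KIT in blebbishields, in spheres and in RT4P-BSE2 was at least 2-fold under every setting tried, between -3.04 and -1.60 in blebbishields. SOX9 in blebbishields was 0.84 without between-array normalization, where the median of all genes was -0.70, and SALL4 was 1.00, just short of the call before rounding, without background correction. In PBSHMS KIT was at least 2-fold under 6 of 10 settings and SOX9 under 7 of 10, and in RT4v6 SOX9 was under 7 of 10.

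**Figure D4:**
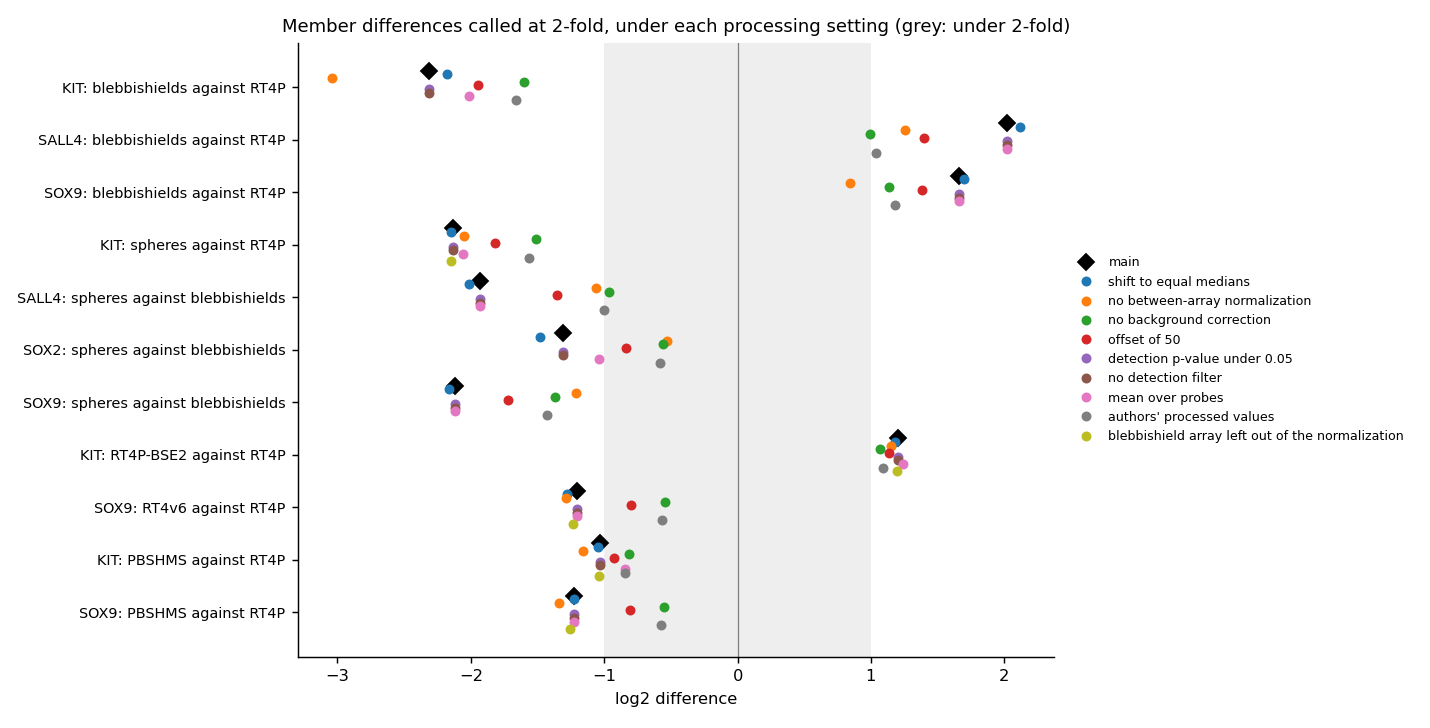
Log2 difference (horizontal axis) of the 11 member differences called at 2-fold, 1 row each, under the main processing (diamond) and each alternative (dots), with the range under 2-fold in grey. All points of a row lie on 1 side of 0, and the KIT rows for blebbishields, spheres and RT4P-BSE2 stay outside the grey range.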

How the data were processed

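Total RNA of 6 samples, grouped by their labels into 6 groups of 1, was measured on single-colour Illumina HumanHT-12 version 4 arrays. The authors deposited non-normalized intensity values for 47322 probes with a detection p-value per probe and array, per the file headers, and a table of processed intensity values. The values show the processed table to be quantile normalized without background subtraction. The submitters' processing notes name GenomeStudio, with no version given in the sources used here. Intensity files hold no read depth, and precision is limited by 1 array per group.

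From the non-normalized intensities, neqc (limma 3.58.1, R 4.3.3) applied a normexp background correction based on the detection p-values, an offset of 16 and quantile normalization over the 6 arrays, on the log2 scale. Detection was a p-value under 0.01. A gene was its brightest detected probe. Where 1 array detected it, the other was raised to that array's lowest detected value, and a bound pointing the other way became 0. Summed marker intensities are linear, without the offset, over the brightest probe of each listed gene. Differences of at least 2-fold were called and no test was run. Of 34694 gene names in the table, 17590 were current RefSeq symbols, 2181 matched 1 gene by an older symbol and 14923 were kept. Summaries and promoter matches used Python 3.11.15, pandas 2.3.3 and numpy 2.4.6, and the steps were tested on simulated arrays. Named genes are the members and, from each context list, those with the largest differences at 2-fold, and, per member spanning at least 1 on the log2 scale, the genes of highest Pearson r. Members and the 12 context lists were chosen with earlier results of these data known. Some genes that meet the naming rule are left out.

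Alternatives changed the between-array normalization, background correction, offset, detection filter, probe rule and starting table. One more, the blebbishield array left out of the normalization, was added after the data were seen.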

Additional observations from a re-analysis of the deposited data

How the results depend on the processing

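Over 8 alternative settings and 1 added after seeing the data, 362 of 425 member differences moved by less than the probe SD, 63 moved more and none called in the main setting changed direction. The number of members called at 2-fold in spheres against blebbishields was 3 and became 1 (SOX9) without background correction. In RT4P-BSE2 against RT4P it was 1 and became 2 with a shift to equal medians, which added SALL4. In RT4v6 it was 1 and became 0 without background correction, with an offset of 50 and with the authors' processed values. In PBSHMS it was 2 and became 0 under the same 3 settings and 1 (SOX9) with the mean over probes. Less background removal shrinks differences of dim probes by construction. With between-array normalization left out, the median over all genes moved to -0.70 in blebbishields against RT4P and to 0.76 in spheres against blebbishields. The share of calls that were higher went from 59.9% to 9.25% (72.9% with equal medians) and from 33.5% to 95.8% (18.7% with equal medians); there SOX4 and CD24 passed 2-fold in blebbishields, at -1.52 and -1.33, and SOX9 did not. Leaving the blebbishield array out of the normalization changed no count of called members in the 4 comparisons without that array. SALL4, SOX2, POU5F1, PROM1 and NANOG lie near background on most arrays, where signal limits what can be measured. No paired analysis was possible because each group is 1 array.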
